A study of Caenorhabditis elegans with 2 samples.

Results

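The splicing factor genes described here are the 40 protein-coding genes of the C. elegans assembly WBcel235 whose symbol starts with rsp-, snr-, lsm-, prp-, uaf- or sftb- and a digit, out of 19973 protein-coding nuclear genes. Sites of the paired-like homeodomain protein DSC-1 were mapped by chromatin immunoprecipitation with an anti-GFP antibody and sequencing. The material was whole hermaphrodite L1 larvae of strain OP522, genotype unc-119(tm4063) III; wgIs522, whose transgene adds a GFP-FLAG tag to the carboxy terminus of DSC-1. Larvae were taken 6 hours after synchronization by L1 starvation, in 2 biological replicates of this single group. There was thus no second condition to compare with, and whole larvae mix all tissues. The control was not analysed here, and whether a given peak depends on DSC-1 was not tested. Each gene was described by the summits of the 6283 pooled peaks past the authors' irreproducible discovery rate (IDR) threshold, a measure of how well peak ranks repeat between replicates. A summit was counted for a gene when it lay between 1000 bp upstream and 200 bp downstream of the outermost annotated start, the promoter window. Peaks were ranked by the authors' signal, rank 1 being the strongest, because the scale of that signal is not stated.

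Splicing removes introns from pre-mRNA in the spliceosome, which is built from small nuclear ribonucleoproteins (snRNPs) and many further proteins. Sm proteins form a ring on the U1, U2, U4 and U5 RNAs, and the related LSm proteins form one on U6 RNA. SR proteins bind exons and help to define them, U2AF and SF3B act at the 3′ end of the intron and at the branch site, and many Prp proteins, named after yeast mutants, work in later rearrangements. In C. elegans the same machinery also joins spliced leaders to the 5′ ends of many messages. Downstream genes of operons depend on this step. Annotated starts of trans-spliced genes can therefore lie downstream of the point where transcription begins.

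A summit lay in the promoter window of 24 of the 40 splicing factor genes, a share of 60.0% (exact Clopper-Pearson 95% interval 43.3 to 75.1). Among all protein-coding genes the share was 14.7%, or 2944 of 19973. The ranks of these peaks were close to those of promoter peaks in general. The strongest summit of each of the 24 members had a median rank of 2518, against 2654 over all 2944 genes with a promoter summit, and 8 of these members (33.3%) were in the strongest 25% of the list, against 32.5%. All 23 distinct member summits lay outside protein-coding genes and upstream of the start. Over all genes with a promoter summit, the strongest one was downstream of the start in only 5.67%. The share outside protein-coding genes was not computed over all promoter summits. The median distance of the strongest summit was 266.5 bp upstream for members and 248.5 bp upstream for all genes with a summit. For 21 of the 24 members it lay 50 to 500 bp upstream (87.5%), against 64.0% over all genes with a summit.

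**Figure D1:**
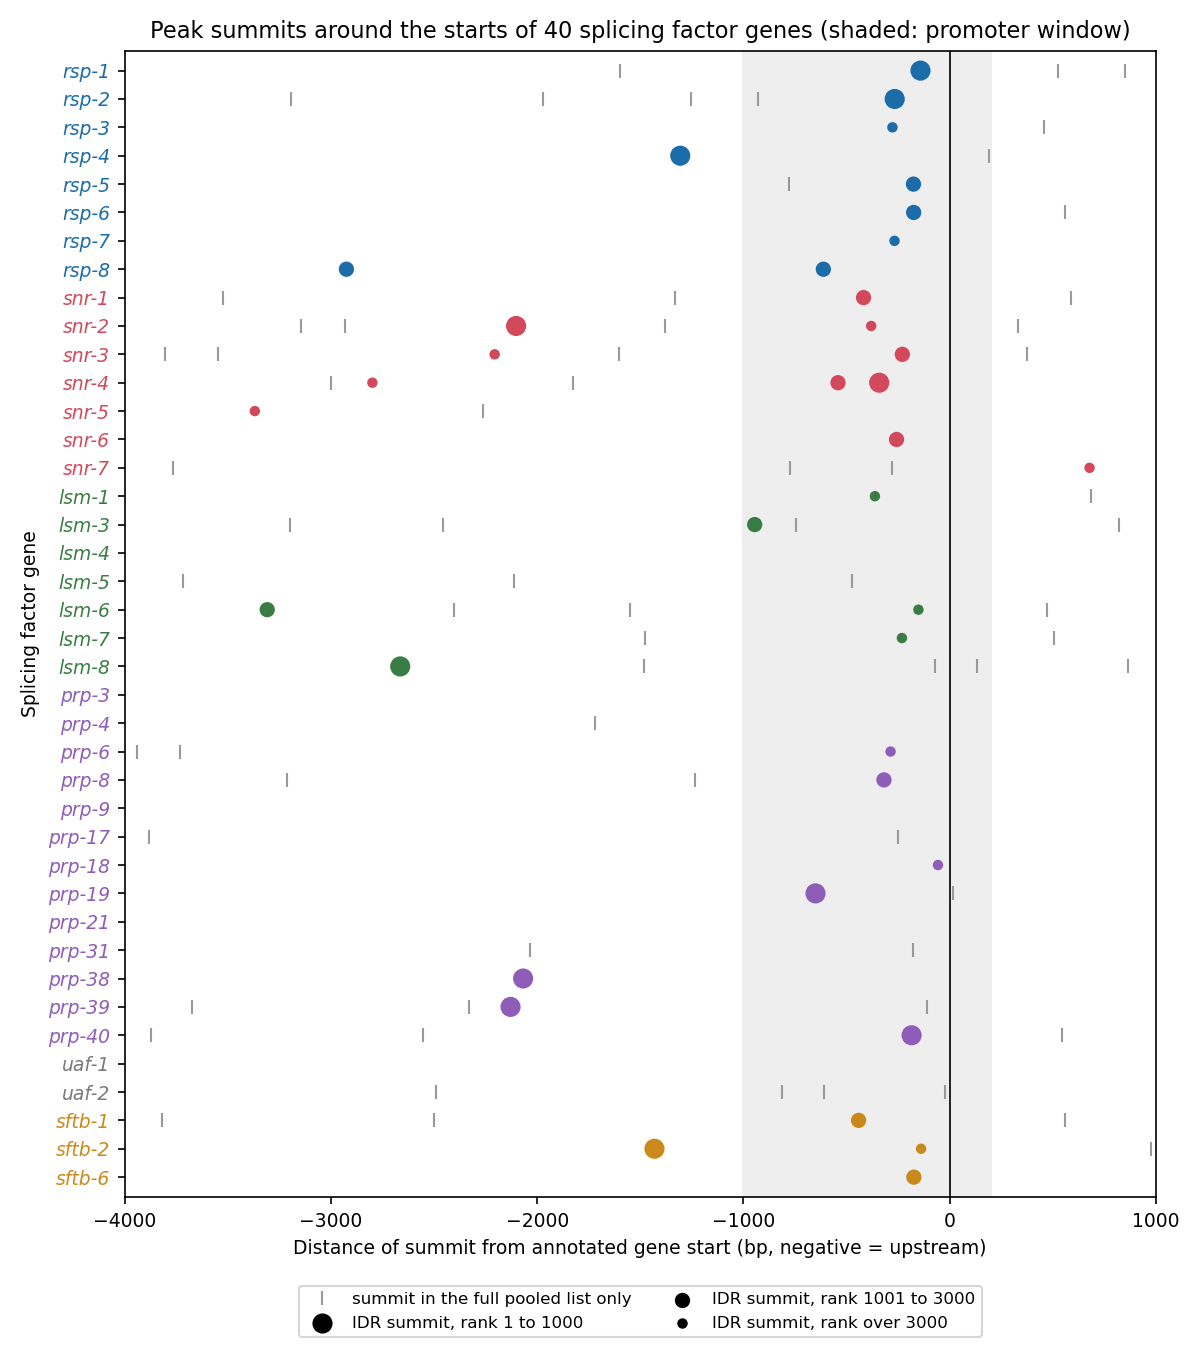
Summits around the starts of the 40 genes. The x axis gives the distance from the annotated start in bp, each row is a gene coloured by family, filled circles are IDR summits sized by rank, grey ticks are summits of the full pooled list that are not in the IDR list, and the shaded band is the promoter window. Filled circles stand in the band for 24 genes, most of them within 500 bp upstream of the start. The full pooled list is labelled as peaks and background.

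The sequences at the 8 strongest of the distinct strongest summits are shown, 50 bp to each side, to let the letters under the best supported peaks be read. They come from the RefSeq copy of WBcel235, the assembly that ce11 names, and are written 5′ to 3′ on the strand of the gene named first. Capitals mark the word GCGC, the longer word CGCNCCA, the word TGCGTC and, in the rsp-6 window, the word TTTCAG, on either strand, with overlapping matches merged.
prp-40 (chrIII:9521841-9521941, plus strand): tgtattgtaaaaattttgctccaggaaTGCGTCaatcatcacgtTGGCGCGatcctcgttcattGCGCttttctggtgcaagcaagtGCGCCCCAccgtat
snr-4 (chrV:11980014-11980114, minus strand): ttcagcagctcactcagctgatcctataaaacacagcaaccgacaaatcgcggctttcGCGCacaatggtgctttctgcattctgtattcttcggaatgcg
prp-19 (chrIII:5172645-5172745, minus strand): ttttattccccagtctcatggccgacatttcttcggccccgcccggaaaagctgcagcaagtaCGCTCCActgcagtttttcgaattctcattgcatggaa
rsp-1 and rsp-2 (chrII:11453171-11453271, plus strand): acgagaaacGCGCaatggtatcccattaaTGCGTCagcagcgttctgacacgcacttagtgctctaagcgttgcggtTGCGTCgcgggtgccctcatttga
rsp-6 (chrIV:7791353-7791453, minus strand): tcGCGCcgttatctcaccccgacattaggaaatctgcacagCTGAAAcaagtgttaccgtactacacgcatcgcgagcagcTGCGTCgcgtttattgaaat
lsm-3 (chrIV:13386208-13386308, plus strand): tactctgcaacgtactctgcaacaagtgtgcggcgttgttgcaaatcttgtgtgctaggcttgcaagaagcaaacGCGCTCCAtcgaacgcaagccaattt
prp-8 (chrIII:8164005-8164105, plus strand): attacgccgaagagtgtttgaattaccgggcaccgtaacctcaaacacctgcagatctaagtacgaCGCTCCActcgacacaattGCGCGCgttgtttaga
sftb-1 (chrIII:4269661-4269761, minus strand): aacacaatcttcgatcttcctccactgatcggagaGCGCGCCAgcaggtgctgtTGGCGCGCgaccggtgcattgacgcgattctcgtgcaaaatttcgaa

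Of the words that homeodomain proteins are known to bind, the longer ones were absent at this width and the short core TAAT was present in some windows. Neither TAATTA, nor TAAT followed after 2 or 3 bases by ATTA, was present in the 101 bp around any of the 22 distinct strongest member summits. Over the 2273 distinct strongest promoter summits of all genes the shares were 4.05% for TAATTA, 0.352% for the spacing of 2 bases and 0.308% for that of 3 bases. The core TAAT was in 8 of the 22 windows, or 36.4%, against 48.9% of all promoter summits. With 100 bp to each side the direction turned, with TAAT in 19 of 22 windows (86.4%) against 77.0%, and TAATTA was then in 1 of 22 (4.55%) against 8.49%. With 50 bp to each side, CACGTG was in 0 of 22 windows against 3.43%. GAGAGA was in 2 (9.09%) against 22.3%, and TTTCAG, the letters of a splice acceptor, in 4 (18.2%) against 8.27%. The absence of a word says only that its letters are not in the window. For words as rare over all promoter summits as the longer ones or CACGTG, 22 windows are too few for absence to set members apart.

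The recurrent words were picked after the sequences had been seen, so their shares only describe these windows. GCGC was in 15 of the 22 windows (68.2%), against 43.0% of all promoter summits. CGCNCCA was in 9 (40.9%), against 11.1%, and TGCGTC in 9 (40.9%), against 15.2%. Some of these matches overlap each other. CGCNCCA was in the windows of prp-40, prp-19, lsm-3, prp-8 and sftb-1, printed above, and in those of snr-1, rsp-8, rsp-3 and lsm-7. In the windows of 60 distinct summits of cytosolic ribosomal protein genes, the shares were 61.7% for GCGC, 21.7% for CGCNCCA and 18.3% for TGCGTC. The median GC content of the member windows was 49.5%, against 44.6% over all promoter summits. With 100 bp to each side it was 40.5% against 40.3%.

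SR protein genes carried a promoter summit at 7 of 8 loci. The divergent pair rsp-1 (II, 11453362 to 11455864, plus strand) and rsp-2 shared a summit at rank 699, 141 bp upstream of rsp-1 and 266 bp upstream of rsp-2, with rank 828 in replicate 1 and 638 in replicate 2. The summit of rsp-6, the homologue of human SRSF3, had rank 1317 and lay 174 bp upstream. It was not in the window of another gene. Its rank was 1224 in replicate 1 and 1439 in replicate 2. That of rsp-3, the homologue of human SRSF1, had rank 3208 at 277 bp upstream and was shared with the neighbour spin-4, and ranked 3133 in replicate 1 and 3401 in replicate 2. A summit at rank 3166 stood 267 bp upstream of rsp-7 and 313 bp upstream of snu-13, which encodes a U4 snRNP protein. It was also 42 bp from the start of the non-coding gene M28.13, and ranked 3325 in replicate 1 and 3305 in replicate 2. The summit of rsp-8 was 612 bp upstream at rank 2805, with 2955 in replicate 1 and 2904 in replicate 2. The member without one was rsp-4, the homologue of SRSF2, whose start lies inside the gene ndx-6. A summit at rank 765 was 1306 bp upstream of rsp-4, outside its window, and in the window of ndx-6.

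Sm protein genes had a summit at 5 of 7 loci. The strongest was at snr-4, which encodes SmD2 (V, 11978508 to 11979723, minus strand). This peak had rank 178 and a signal of 742.3, where the median of the list was 161.6, and its rank was 137 in replicate 1 and 236 in replicate 2. Its summit was 341 bp upstream, and a second one, at rank 1218, was 541 bp upstream, with 1731 in replicate 1 and 1199 in replicate 2. No other member had 2 summits in the window. Both summits lay within 200 bp of the start of T11F9.15, annotated as an snRNA gene, at 54 and 146 bp. Whether the signal belongs to snr-4 or to this gene cannot be told apart. The SmD1 gene snr-3 shared a summit with the SR protein gene rsp-5, a second divergent pair of members. It had rank 2518 and lay 229 bp upstream of snr-3 and 175 bp upstream of rsp-5, with 2224 in replicate 1 and 2824 in replicate 2.

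The summit of snr-1, encoding SmD3, had rank 2403 and lay 417 bp upstream, and 194 bp upstream of the neighbour snx-13. It ranked 3632 in replicate 1 and 1881 in replicate 2. The SmE gene snr-6 had a summit at rank 2899, 257 bp upstream, with 2708 in replicate 1 and 3155 in replicate 2. It was also 623 bp upstream of Y49E10.16. The summit of the SmB gene snr-2 had rank 4929, 380 bp upstream, with 4496 in replicate 1 and 5597 in replicate 2. It was also 86 bp upstream of the neighbour W08E3.4. At snr-7, encoding SmG, the nearest summit was 679 bp downstream of the start and outside the window. At the SmF gene snr-5 it was 3369 bp upstream. It lay in the windows of coq-5, tomm-7 and ufm-1.

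LSm genes had a summit at 4 of 7 loci, with ranks of 1399 for lsm-3, 3261 for lsm-7, 3872 for lsm-1 and 4599 for lsm-6. In replicate 1 these peaks had ranks of 1212 for lsm-3, 3230 for lsm-7, 4281 for lsm-1 and 5615 for lsm-6. In replicate 2 the ranks were 1597 for lsm-3, 3485 for lsm-7, 4146 for lsm-1 and 4294 for lsm-6. The product of lsm-1 belongs to the cytoplasmic ring that acts in mRNA decay rather than splicing. The lsm-1 summit was 362 bp upstream of it and 226 bp upstream of the ribosomal protein gene rps-9. The lsm-7 summit, 231 bp upstream, was shared with the dynactin gene dnc-1 at 68 bp. The lsm-6 summit was 151 bp upstream of the gene and was shared with Y71G12B.13 at 895 bp. The lsm-3 summit was 945 bp upstream, near the edge of the window, and only 122 bp upstream of the Mediator gene mdt-9, inside which lsm-3 starts. It was closer still to Y62E10A.23, at 66 bp, and also 167 bp upstream of Y62E10A.20. No IDR summit was in the windows of lsm-4, lsm-5 and lsm-8, the last encoding the subunit that marks the nuclear ring on U6. The nearest one was 16219 bp upstream of lsm-4, 18545 bp upstream of lsm-5 and 2664 bp upstream of lsm-8.

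Genes named after yeast Prp proteins had the strongest member peak but a summit at only 5 of 13 loci. The peak at prp-40 (III, 9522075 to 9525454, plus strand), encoding a U1 snRNP-associated protein, had rank 150 and a signal of 789.6. The rank was 173 in replicate 1 and 153 in replicate 2. Its summit was 184 bp upstream of prp-40 and 431 bp upstream of the divergent gene clu-1. The peak near prp-19 (III, 5169933 to 5172045, minus strand), encoding a ubiquitin ligase of the spliceosome, had rank 351, with 241 in replicate 1 and 478 in replicate 2. It was 650 bp upstream of prp-19 but 25 bp upstream of the neighbour K10D2.5.

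The remaining Prp genes with a summit were prp-8, the U5 snRNP core protein, at rank 1499 (318 bp upstream), prp-18 at rank 3246 (56 bp upstream) and prp-6 at rank 3251 (286 bp upstream). In replicate 1 their ranks were 1554 for prp-8, 2741 for prp-18 and 3954 for prp-6, and in replicate 2 they were 1476 for prp-8, 4036 for prp-18 and 3046 for prp-6. The prp-8 summit was also 672 bp upstream of bath-42, and the prp-18 summit 131 bp upstream of mccc-1. Prp genes without a summit were prp-3, prp-4 and prp-31, whose products belong to the U4/U6 particle, prp-9 and prp-21, which encode SF3A subunits, and prp-17, prp-38 and prp-39. The nearest IDR summit was 2068 bp upstream of prp-38, 2129 bp upstream of prp-39 and 4278 bp upstream of prp-3. It was 7089 bp downstream of the start of prp-4, and between 9284 and 21784 bp away for prp-17, prp-31, prp-21 and prp-9.

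All 3 genes named sftb-, which encode SF3B subunits, had a summit, a count that covers this name only. They were sftb-1, the homologue of human SF3B1, at rank 1619 and 441 bp upstream, sftb-6 at rank 2432 and 173 bp upstream, and sftb-2 at rank 6233 and 138 bp upstream. The sftb-1 summit ranked 1384 in replicate 1 and 1916 in replicate 2, and was 32 bp upstream of the divergent gene R10E4.1. The sftb-6 summit ranked 2449 in replicate 1 and 2213 in replicate 2, and was shared with luc-7L3, a homologue of U1-associated LUC7 proteins. The sftb-2 peak was near the end of the IDR list and ranked 8000 in replicate 1 and 5958 in replicate 2. Its summit was 65 bp upstream of the neighbour W03F9.2. Outside the window, 1431 bp upstream of sftb-2, lay another summit, at rank 955. The U2AF genes uaf-1 and uaf-2 had no summit. With 0 of 2, the exact 95% interval reaches 84.2%, so little can be read from this family. The nearest IDR summit was 66237 bp from uaf-1 and 31135 bp from uaf-2.

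**Figure D2:**
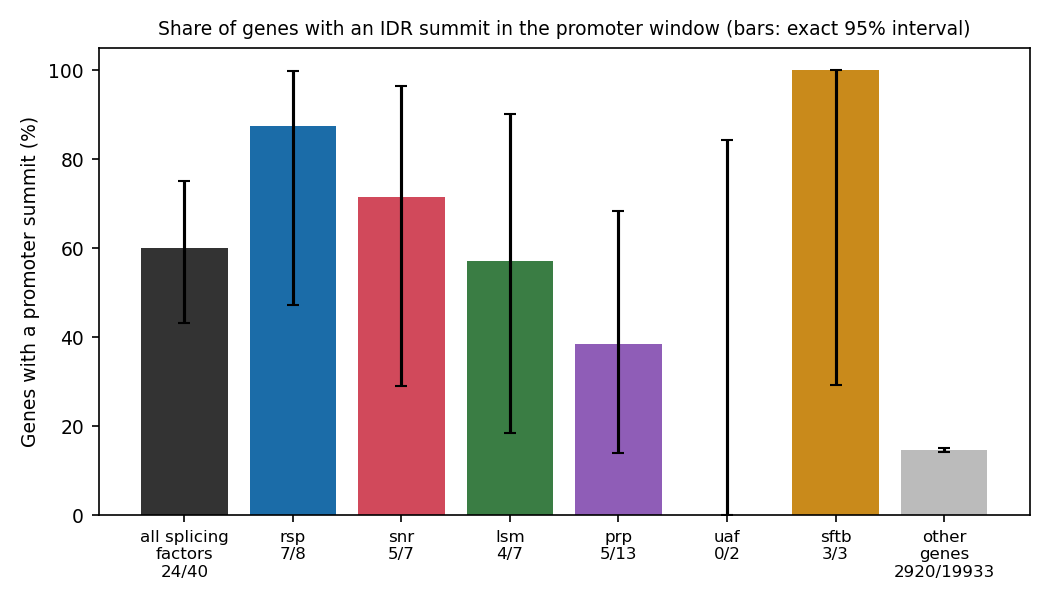
Share of genes with an IDR summit in the promoter window, in percent, for all 40 splicing factor genes, each family and the other 19933 protein-coding genes. Error bars are exact 95% intervals, which cover counting error only. The intervals of the families are wide and overlap each other, while that of all members, 43.3 to 75.1, lies above that of the other genes, 14.2 to 15.1. The intervals treat genes as independent, although rsp-1 and rsp-2, and likewise rsp-5 and snr-3, share a summit.

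Both replicates held the member peaks. Each of the 23 distinct summits had an overlapping peak in both replicate lists, and 22 in replicate 1 and 23 in replicate 2 were among the 6283 strongest peaks of that replicate. Their ranks ran from 137 to 8000 in replicate 1, with a median of 2708, and from 153 to 5958 in replicate 2, with a median of 2824. The Spearman correlation of the ranks was 0.90 across these 23 peaks. Peaks are not replicates, and both libraries contributed to the list from which these were taken. The IDR threshold selects peaks whose ranks repeat between replicates, so overlap and similar ranks follow at least in part from that selection. The same values were not computed over all IDR peaks. With the 6283 strongest peaks of replicate 1 alone, 27 members had a promoter summit, against 15% of all genes. With those of replicate 2 alone it was 24, the same genes as in the IDR list, against 14.3% of all genes. Replicate 1 alone added lsm-5, prp-21, snr-5 and uaf-2 and lost sftb-2.

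**Figure D3:**
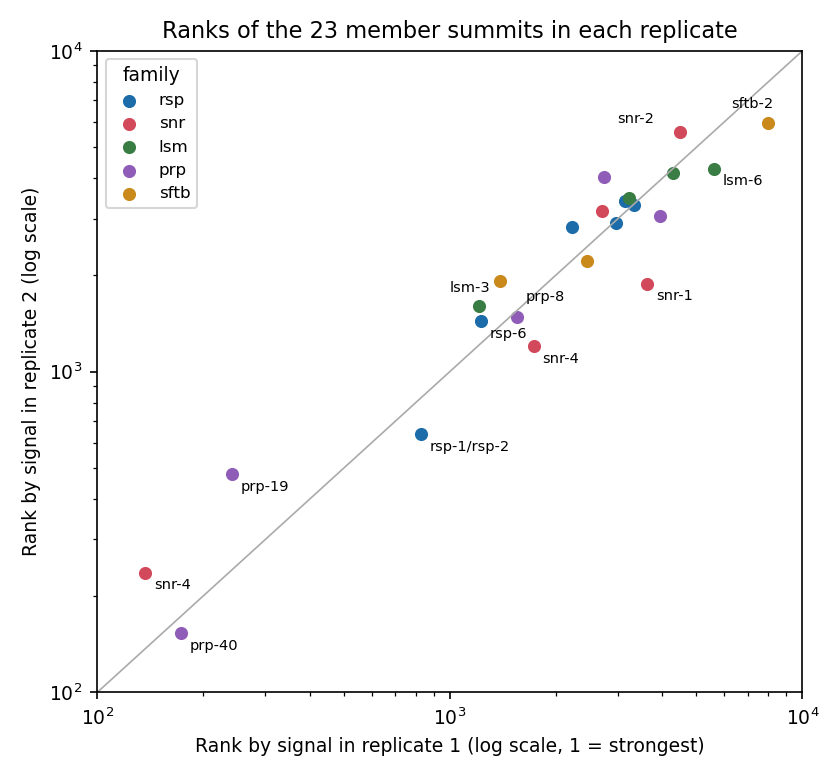
Rank of each of the 23 distinct member summits in replicate 1 (x axis) and replicate 2 (y axis), both on log scales, coloured by family, with the line of equal rank. The peaks of snr-4, prp-40 and prp-19 are the strongest in both replicates. The peak of snr-1 has rank 3632 in replicate 1 and 1881 in replicate 2.

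Most member summits could not be assigned to a single gene. Of the 24 members with a summit, 20 shared their strongest one with the window of another protein-coding gene (83.3%), against 44.4% over all genes with a summit. The nearest upstream neighbour was on the opposite strand for 27 of 40 members (67.5%), against 42.2% of all genes. Within 500 bp of such a neighbour, 11 of 16 members had a summit (68.8%), against 33.3% of 1815 genes. With the neighbour on the opposite strand further away, the count was 8 of 11 (72.7%), against 17.9% of 6606 genes. If a summit could count solely for the closest start, 13 of 40 members kept one (32.5%), against 11.5% of all genes. The 11 members that then lost theirs were lsm-1, lsm-3, lsm-7, prp-19, rsp-2, rsp-3, sftb-1, sftb-2, snr-1, snr-2 and snr-3.

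**Figure D4:**
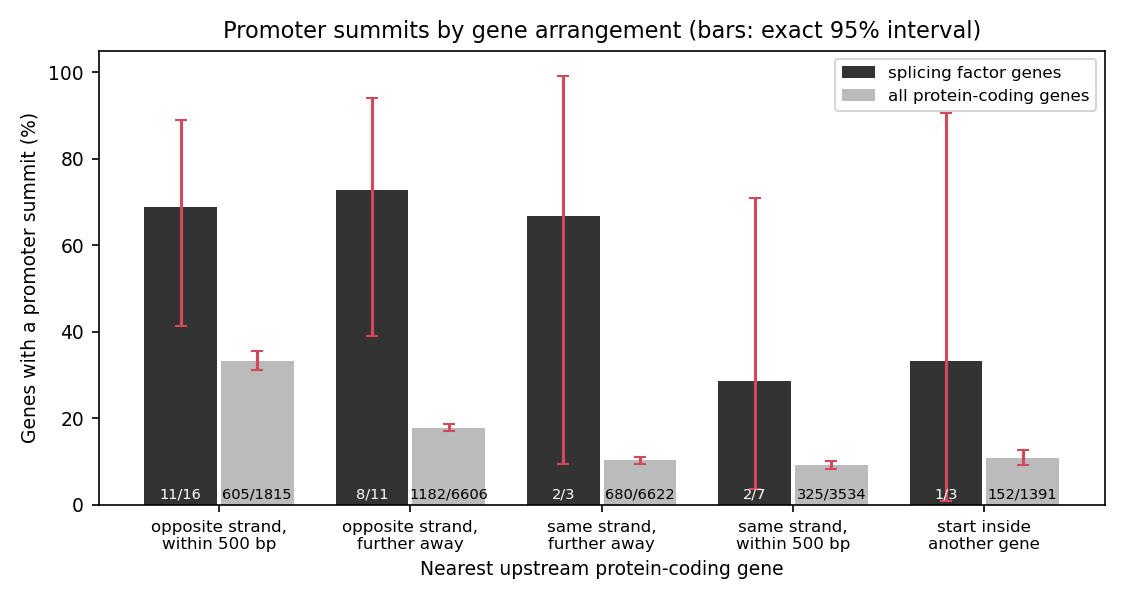
Share of genes with an IDR summit in the promoter window, in percent, by the strand and distance of the nearest upstream protein-coding gene, for splicing factor genes (black) and all protein-coding genes (grey), with exact 95% intervals. Numbers in the bars are genes with a summit over all genes of that kind. The members' share is 68.8% and 72.7% where the neighbour is on the opposite strand and 28.6% where it is on the same strand within 500 bp.

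Several members without a summit lie just downstream of a gene on the same strand, a spacing that is common in operons. Such a neighbour within 500 bp was present for 7 of 40 members (17.5%), close to the 17.7% of all genes. Of these 7 members, 2, rsp-6 and lsm-6, had a summit in the window (28.6%), against 9.2% of all genes so placed. All other members had one at 22 of 33 loci (66.7%), against 15.9% of all genes in other arrangements. The 5 close members without a summit were lsm-5, lsm-8, prp-3, prp-38 and prp-39. For 4 of them the first gene of the run carried a promoter summit, which was the case for 806 of 3209 genes of this kind (25.1%). For lsm-8 this gene was sqd-1, a homologue of hnRNP genes, with a summit at rank 152, 312 bp upstream of sqd-1. For prp-38 it was plrg-1, which encodes a partner of the Prp19 protein in the spliceosome, at rank 540 and 190 bp upstream. For prp-39 it was the HMG-CoA synthase gene hmgs-1 at rank 681, whose summit was also in the window of F25B4.4. For prp-3 it was smrd-1 at rank 1601. These first genes start 2352 bp from lsm-8, 1878 bp from prp-38 and 1959 bp from prp-39, but 8006 bp from prp-3. An IDR summit at rank 3462 was nearer to prp-3, 4278 bp upstream of it. Operon annotation was not used here, so whether these genes are transcribed together was not tested.

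Below the IDR threshold, some of the 16 members without a summit had lower ranked entries. The full pooled list of 30000 entries is labelled as peaks and background, the input for IDR. An entry in it alone therefore cannot be told apart from background. In this list 32 members had a summit in the window, against 33.3% of all genes. The 8 added ranked between 6384 (uaf-2) and 29771 (rsp-4), and 6 of the 16 had a summit in both full replicate lists. Over all genes, 33.7% had a summit in the full list of replicate 1 and 34.0% in that of replicate 2. The share in both lists was not computed for all genes without an IDR summit, so the 6 of 16 only describes these members. At lsm-4, prp-4, prp-38 and uaf-1, none of the 3 full lists held a summit in the window. Read depth is not contained in the lists, so these loci are described only as having no listed peak.

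Further splicing genes outside the name rule were described by count. Of 51 listed genes, all found in the annotation, 24 had a promoter summit (47.1%, interval 32.9 to 61.5), against the same 14.7% of all genes. The strongest were at mog-4, encoding a DEAH-box helicase (rank 126), at rsr-1, encoding an SR-related protein (rank 318, shared with sri-5), and at plrg-1 (rank 540). They were followed by hrpr-1 (rank 885), the SR protein kinase gene spk-1 (rank 962), hrpa-1 (rank 1040), hrpk-1 (rank 1107, 197 bp downstream of its start) and hel-1 (rank 1600). For orientation, 63 of 81 cytosolic ribosomal protein genes (77.8%) and 17 of 33 proteasome genes (51.5%) had a summit. The median rank of the ribosomal ones was 1370. Differences between these sets were not tested.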

How the data were processed

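The authors deposited peak lists of ChIP-seq for each of 2 replicates, for the pooled replicates and for pooled peaks past their IDR threshold. Per the labels, 1 group was sampled. The full pooled list is labelled as peaks and background, the input for IDR. The ce11 lists were used and the ce10 lists were not. For the aligner, peak caller, IDR threshold and read depth: not given in the sources used here. The signal of each peak is the authors' deposited value on an unstated scale and was used for ranks, which were compared only within a list. Gene models were those of Ensembl release 115 (WBcel235). Summits were assigned to windows in Python 3.11.15 with pandas 2.3.3, checked on simulated summits. Intervals are exact Clopper-Pearson 95% intervals (scipy 1.17.1) and cover counting error only. No test was made, since there is 1 group and genes are not replicates. Replicate peaks were matched by an overlap of at least 1 bp. All members with a summit are named, and of the further splicing genes the 8 strongest. Members and lists were chosen with earlier results of these data known. Sequences are shown for the 8 strongest of the members' strongest summits, chromosome I left out. The word GCGC, the word CGCNCCA, the core TAAT and the word TGCGTC, the counts by strength and distance zone, the GC content and the grouping by upstream neighbour were chosen after the data were seen.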

Additional observations from a re-analysis of the deposited data

How the results depend on the processing

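The count of 24 members with a promoter summit was 15 with the stronger 50% of the IDR peaks (8.6% of all genes) and 13 with nearest starts only (11.5%). Leaving out a replicate gave 24 to 27. It was 21 in the window from 500 bp upstream to 100 bp downstream (11.2% of all genes), 25 in that from 2000 bp upstream to 500 bp downstream (20.0%), 24 with any transcript start (16.2%) or with peak overlap (16%), and 32 in the full pooled list (33.3%). The median rank of 2518 was 1499 with the stronger 50%, 2432 in the wide window and 3187 in the full pooled list, which is longer, and 2741 to 2824 without a replicate. The median distance of -266.5 bp was -184 bp with nearest starts only, -257 bp in the narrow window, -277 bp in the wide window, -253.5 bp in the full pooled list, and -269.5 to -268 bp without a replicate. Shared summits, found at 20 of 24 members, were at 12 of 15 with the stronger 50%. They were at 22 of 27 with replicate 1 alone and 20 of 24 with replicate 2 alone. The counts were 15 of 21 in the narrow window, 23 of 25 in the wide window and 24 of 32 in the full pooled list. With nearest starts only the count was 0 by construction. A share over all genes, 44.4%, is given for the main setting only. Windows holding a homeodomain word or TTTCAG numbered 4 of 22 with 50 bp to each side, against 12.4% of all promoter summits, and 9 with 100 bp, against 28.8%. The cause of these changes was not tested beyond what each setting does by construction. Depth is not contained in the lists, so loci without a peak cannot be told apart from loci covered too thinly.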
